A study of Mus musculus with 12 samples.

Results

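Rods and cones are the light-sensing neurons of the retina, and 33 genes that mark them were followed in RNA from retinal ganglion cells, the output neurons of the same tissue. The genes were chosen by name for their textbook roles in photoreceptors, with earlier results of these data known. All 33 were found among the 38887 genes of the expression table. They comprise 3 transcription factors, 8 genes of the rod transduction cascade, 5 regulators of transduction, 7 genes of the outer segment, cilium and retinoid handling, and 10 cone genes. The table held 12 libraries in 4 groups of 3, each library made from polyA RNA of 30 hand-picked fluorescent cells. Opn4 crush and Opn4 sham cells came from Opn4CreERT/+;R26-tdTomatof/f mice, whose red reporter marks melanopsin ganglion cells. The line behind HB9 crush and HB9 sham cells was HB9:GFP, where GFP labels ganglion cells of the ON-OFF direction-selective class. All mice received tamoxifen at 0.124 mg/g on 5 days from postnatal day 21, had optic nerve crush or sham surgery at postnatal day 42, and gave their cells 3 days later. Cre recombinase and the red reporter were carried by the Opn4 line alone, so cell class and mouse line cannot be told apart. Each library pooled 10 cells from each of 3 animals, and p-values measure the spread between such pools.

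In a rod, light-activated opsin switches on the G protein transducin, which activates the phosphodiesterase PDE6, and the fall in cyclic GMP closes cation channels of the outer segment. Arrestin and opsin kinase end the response, and recoverin and the guanylate cyclase activators tune it through calcium. Cones use their own opsins and, for most steps, a paralog of the rod protein. The transcription factor Crx acts in rods and cones, whereas Nrl and Nr2e3 direct the rod programme.

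The libraries had been scaled to totals of 15104446 to 28195798 reads, and values are RPKM, that is, reads scaled by gene length and library total. The ganglion cell markers Rbpms and Slc17a6 were above 90 RPKM in all 12 libraries. Of a list of 15 such markers, 13 were at 1 RPKM or more in all 12. Pou4f1, also on it, was at 1.27 to 7.43 RPKM in Opn4 and 25.9 to 88.2 RPKM in HB9 libraries. Pou4f2 was at 0.0269 to 16.1 RPKM over the 12. Opn4, the melanopsin gene, was at 1255 to 1773 RPKM in the 6 Opn4 libraries and at 0.158 to 24.3 RPKM in the 6 HB9 libraries. Mnx1, the HB9 gene, was at 0 to 0.144 RPKM in Opn4 libraries. It was at 2.96, 1.13 and 3.06 RPKM in HB9 crush and 20.9, 41.7 and 34.0 RPKM in HB9 sham libraries. Libraries Opn4 crush 1 and Opn4 sham 1 stood apart from the rest on the third principal component of all tested genes, at 61.9 and -83.8, where the other 10 lay between -34.3 and 33.2. Results that rest on them are therefore also given without them. The cells were chosen under the microscope as isolated and fluorescent, per the labels. Whether photoreceptor transcripts came from the picked ganglion cells, from a photoreceptor in the pool or from free RNA was not tested, and in pooled cells fewer cells of a type and less RNA per cell cannot be told apart.

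Sequences upstream of some of these genes held short motifs bound by photoreceptor transcription factors. TAATCC is the core site bound by Crx, and TGCTGA is the core of the site bound by Nrl. Both were searched on both strands of the 250 bases upstream of each RefSeq start (build GRCm38.p6), where 23 of the 33 genes had a window. TAATCC was present in 10 of the 24 windows of these genes, or 41.7%, against 6.25% of the 32851 windows of all genes. For TGCTGA the counts were 6 of 24, or 25%, against 16.1% of all windows, and 3 windows held both, 12.5% against 0.962%. Of the 5 rod transduction genes with a window, 4 held TAATCC, whereas 1 of the 7 cone gene windows did. The windows of 4 genes are shown, 5′ to 3′ on the strand of the gene, with matches on either strand in capitals (GGATTA and TCAGCA are the reverse complements). They are those of the rod arrestin gene with a match to each motif, the gene of the 32 tested with the largest difference between cell classes averaged over both surgeries, Crx itself, and the short-wavelength opsin that was high in 1 library.
Sag (chr1:87803430-87803679, plus strand): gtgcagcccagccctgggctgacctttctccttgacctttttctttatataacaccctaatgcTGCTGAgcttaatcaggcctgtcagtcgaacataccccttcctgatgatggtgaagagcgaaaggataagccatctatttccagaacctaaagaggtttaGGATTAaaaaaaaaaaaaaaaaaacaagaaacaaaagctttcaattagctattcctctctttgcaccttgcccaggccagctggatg
Cngb1 (chr8:95306586-95306835, minus strand): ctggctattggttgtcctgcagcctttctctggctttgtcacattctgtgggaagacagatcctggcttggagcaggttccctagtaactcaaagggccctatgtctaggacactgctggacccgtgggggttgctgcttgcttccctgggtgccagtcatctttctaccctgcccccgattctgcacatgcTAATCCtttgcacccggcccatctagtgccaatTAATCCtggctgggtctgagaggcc
Crx (chr7:15879956-15880205, minus strand): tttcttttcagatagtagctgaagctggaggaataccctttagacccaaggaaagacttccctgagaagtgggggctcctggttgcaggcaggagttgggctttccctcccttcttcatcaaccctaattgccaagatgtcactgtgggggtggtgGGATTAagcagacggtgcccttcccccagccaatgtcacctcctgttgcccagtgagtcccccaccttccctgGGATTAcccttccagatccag
Opn1sw (chr6:29380514-29380763, minus strand): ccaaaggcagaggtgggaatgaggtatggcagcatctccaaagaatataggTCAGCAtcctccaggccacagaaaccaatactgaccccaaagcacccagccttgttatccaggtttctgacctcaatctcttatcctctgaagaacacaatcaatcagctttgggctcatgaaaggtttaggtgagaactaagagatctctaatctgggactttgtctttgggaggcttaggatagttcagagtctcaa
In Sag the TGCTGA match began 187 bases and the TAATCC match 87 bases from the start. Cngb1 held TAATCC at 58 and 25 bases and Crx at 94 and 21 bases. Opn1sw had TGCTGA at 199 bases and no TAATCC, which says only that these letters are not in this window. None of the matches shown overlapped another. A match is a description of the letters and not of binding.

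Transcripts of rods were present in every library, whereas those of cones were present in some. All 23 genes outside the cone group were above 0 in 12 of 12 libraries and at 1 RPKM or more in at least 10 of them. Of the 10 cone genes, only Gnb3 reached 1 RPKM in all 12, and Cnga3, a cone channel subunit, was listed at 0 in all 12. Together the 33 genes made up 0.119% to 0.364% of all RPKM in Opn4 crush libraries and 0.0762% to 0.233% in Opn4 sham libraries. The shares were 0.0619% to 0.0905% in HB9 crush libraries and 0.0293% to 0.0979% in HB9 sham libraries. Marker genes of ganglion cells, 15 in number, held 0.628% to 0.761% in Opn4 libraries and 0.728% to 1.12% in HB9 libraries.

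**Figure D1:**
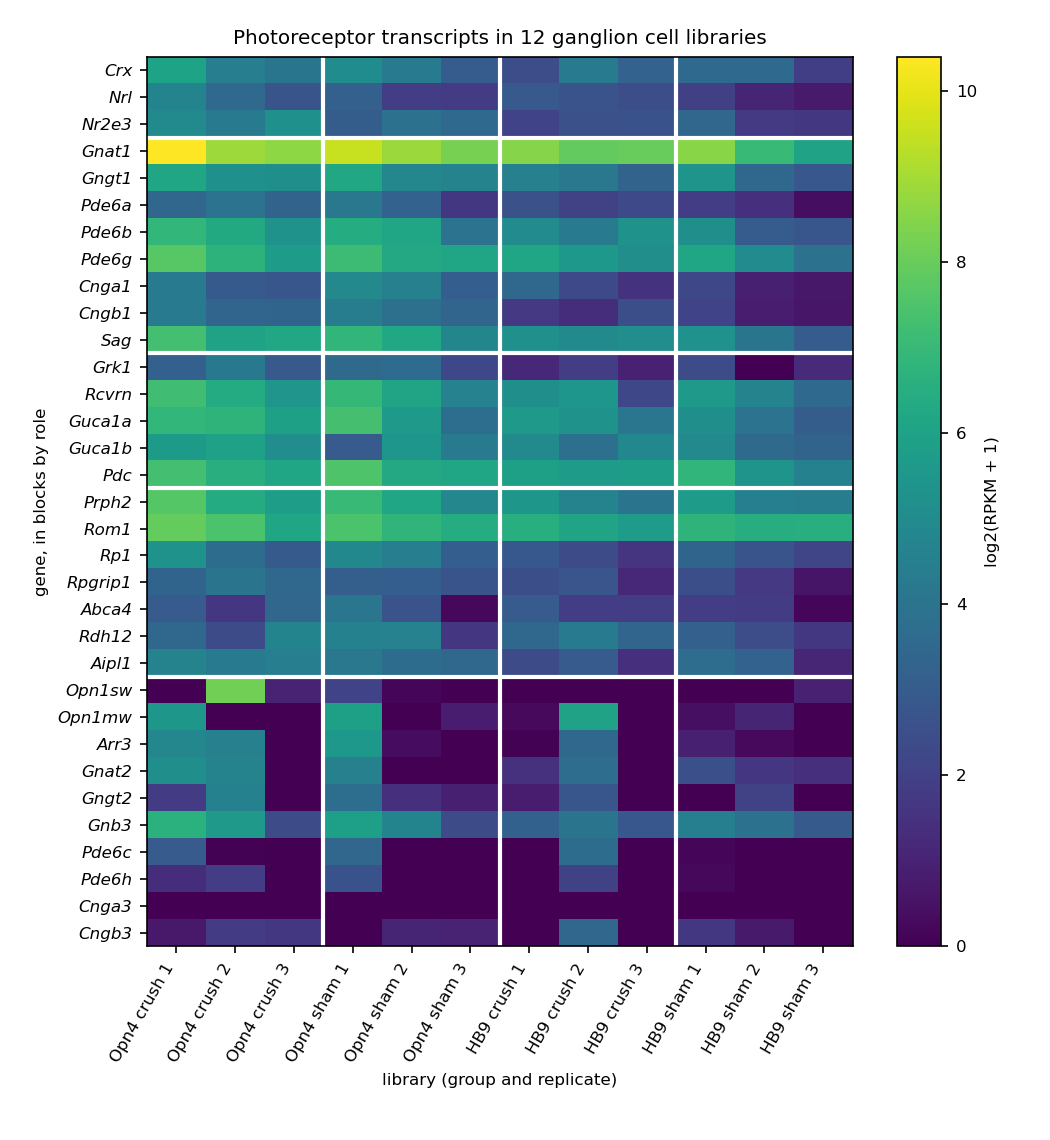
Heat map of log2(RPKM + 1) for the 33 photoreceptor genes, in rows by role, over the 12 libraries, in columns by group with white lines between groups. Gnat1 is the brightest row in 11 of 12 libraries, and in the lowest block most cone genes are near 0 in most libraries, while Gnb3 is above 0 in all 12.

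Gnat1, which encodes the alpha subunit of rod transducin (chr9:107674477-107679592, mm10), was the most abundant of the 33 in 11 of 12 libraries, and Rom1 was in HB9 sham 3. Its values in replicates 1, 2 and 3 were 1348, 464 and 401 RPKM in Opn4 crush libraries, 726, 460.2 and 308 RPKM in Opn4 sham libraries, 362, 237 and 253 RPKM in HB9 crush libraries, and 378, 126 and 63.4 RPKM in HB9 sham libraries. The 2 highest values belonged to the Opn4 libraries numbered 1, and the 2 lowest to HB9 sham. Among all genes Gnat1 ranked 68th in Opn4 crush 1 and 2820th in HB9 sham 3. Its 3 Opn4 crush values lay above its 3 HB9 crush values, while the sham groups overlapped.

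Other parts of the rod cascade were present at lower levels. Sag, rod arrestin, was at 157, 62.2 and 71.2 RPKM in Opn4 crush, 114, 73.4 and 26.0 RPKM in Opn4 sham, 36.2, 30.5 and 33.5 RPKM in HB9 crush, and 37.3, 14.9 and 7.18 RPKM in HB9 sham libraries. Pde6g, the inhibitory subunit of rod PDE6, was at 205, 104 and 51.2 RPKM in Opn4 crush, 137, 75.6 and 69.5 RPKM in Opn4 sham, 70.9, 45.9 and 34.1 RPKM in HB9 crush, and 68.5, 31.1 and 13.9 RPKM in HB9 sham libraries. For both genes Opn4 crush 1 was the highest library and HB9 sham 3 the lowest. Cngb1, a subunit of the rod cyclic GMP-gated channel (chr8:95239045-95306585, mm10), was at 19.2, 9.56 and 9.14 RPKM in Opn4 crush, 19.7, 13.2 and 9.64 RPKM in Opn4 sham, 2.33, 1.57 and 4.66 RPKM in HB9 crush, and 3.22, 0.755 and 0.554 RPKM in HB9 sham libraries. Every Opn4 library lay above every HB9 library for Cngb1, which was true of no other of the 32 tested and of 3.91% of all tested genes. Cnga1, the partner subunit, was at 19.1, 6.63 and 5.88 RPKM in Opn4 crush, 28.9, 22.1 and 7.64 RPKM in Opn4 sham, 10.0, 3.86 and 1.85 RPKM in HB9 crush, and 3.75, 0.899 and 0.607 RPKM in HB9 sham libraries. Its crush groups overlapped and its sham groups did not. The median over the 12 libraries was 25.8 RPKM for Gngt1, the transducin gamma subunit, and 36.4 and 4.40 RPKM for the PDE6 catalytic subunits Pde6b and Pde6a.

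The 3 transcription factors had medians between 4.90 RPKM for Nrl and 13.2 RPKM for Crx. Nrl, the leucine zipper factor of rods, was at 24.6, 10.8 and 5.59 RPKM in Opn4 crush, 8.23, 2.72 and 2.54 RPKM in Opn4 sham, 6.56, 5.30 and 4.51 RPKM in HB9 crush, and 2.95, 1.10 and 0.703 RPKM in HB9 sham libraries. Its HB9 crush values all lay above its HB9 sham values, while the Opn4 groups overlapped. Nr2e3, a nuclear receptor that represses cone genes in rods, was at 29.6, 18.3 and 36.5 RPKM in Opn4 crush, 7.28, 14.1 and 10.6 RPKM in Opn4 sham, 3.28, 4.91 and 5.10 RPKM in HB9 crush, and 9.72, 2.43 and 2.20 RPKM in HB9 sham libraries. The 3 Opn4 crush libraries were the 3 highest of 12. Crx, the homeobox factor of both photoreceptor types, was at 64.8, 20.6 and 15.6 RPKM in Opn4 crush, 31.9, 18.5 and 7.14 RPKM in Opn4 sham, 4.48, 19.0 and 8.66 RPKM in HB9 crush, and 10.9, 10.7 and 2.80 RPKM in HB9 sham libraries. Opn4 crush 1 was the highest of the 12 and HB9 sham 3 the lowest, and the 2 classes overlapped after both surgeries.

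Among the regulators of transduction, Grk1 encodes the opsin kinase. It was at 8.11, 17.4 and 6.45 RPKM in Opn4 crush, 10.98, 11.4 and 3.77 RPKM in Opn4 sham, 1.23, 2.70 and 0.946 RPKM in HB9 crush, and 4.30, 0.0109 and 1.42 RPKM in HB9 sham libraries. A single HB9 value, that of sham replicate 1, exceeded the lowest Opn4 value. Rcvrn, recoverin, was at 147, 83.1 and 42.1 RPKM in Opn4 crush, 120.2, 66.0 and 23.4 RPKM in Opn4 sham, 35.6, 43.7 and 3.81 RPKM in HB9 crush, and 48.5, 24.1 and 10.7 RPKM in HB9 sham libraries. The classes overlapped for Rcvrn after both surgeries. Median levels were 67.9 RPKM for Pdc, phosducin, which binds the transducin beta and gamma subunits, and 42.5 and 28.8 RPKM for the guanylate cyclase activators Guca1a and Guca1b. Rcvrn overlaps Glp2r on the opposite strand. Nr2e3, Pde6a, Rpgrip1, Abca4, Opn1sw, Opn1mw and Gngt2 also overlap a gene on the opposite strand, and whether the authors counted by strand is not given in the sources used here.

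Outer segment and cilium genes varied in how closely they followed the rod cascade. Prph2, a tetraspanin of the disc rim, was at 202, 82.9 and 56.1 RPKM in Opn4 crush, 128, 68.3 and 27.2 RPKM in Opn4 sham, 44.0, 24.3 and 14.8 RPKM in HB9 crush, and 51.6, 21.8 and 19.6 RPKM in HB9 sham libraries. Aipl1, a chaperone for PDE6, was at 24.2, 19.3 and 20.9 RPKM in Opn4 crush, 16.9, 11.7 and 10.2 RPKM in Opn4 sham, 4.29, 6.83 and 1.69 RPKM in HB9 crush, and 12.3, 8.59 and 1.18 RPKM in HB9 sham libraries. For both genes the 3 Opn4 crush values lay above the 3 HB9 crush values, and the sham groups overlapped. Rom1, the tetraspanin partner of Prph2, had the highest median of this group at 92.4 RPKM and a narrow range of 51.3 to 242 RPKM. Medians were 7.06 RPKM for Rp1, an axoneme protein, 5.59 RPKM for Rpgrip1, a protein of the connecting cilium, 9.79 RPKM for the retinol dehydrogenase Rdh12, and 2.73 RPKM for the retinoid transporter Abca4.

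Rod transcripts varied together from library to library. Over the 12 libraries the SD of log2(RPKM + 1) had a median of 1.15 for the 10 rod genes, which are the 8 of the cascade with Nrl and Nr2e3. After the mean of the other rod genes in the same library was subtracted, the median SD was 0.50, and it was smaller for 10 of 10. The smallest remaining SD was 0.26, for both Gnat1 and Sag. Cone genes kept a median SD of 1.46, against 1.53 before the subtraction, and it was smaller for 7 of 10. Cnga3, at 0 throughout, could only become larger. For the 13 genes on neither the rod nor the cone list it went from 1.12 to 0.73, and it was smaller for 11 of 13. Rom1 had an SD of 0.64 that became 0.82 after the subtraction. These SDs include the differences between groups. Within groups the median SD of the rod genes went from 0.84 to 0.42 and was smaller for 9 of 10. Nr2e3 was the exception, at 0.61 before and 0.78 after. All of these points come from the same 12 libraries and share their depth and scaling.

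**Figure D2:**
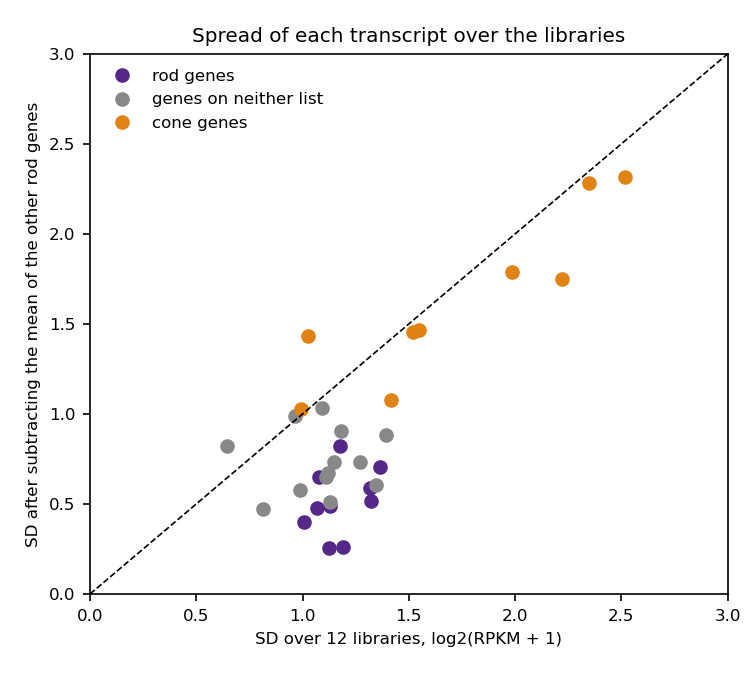
SD of log2(RPKM + 1) over the 12 libraries for each gene, on the x axis, against its SD after subtracting the mean of the other rod genes of the same library, on the y axis. The 10 rod genes lie below the dashed line of equality, and most cone genes lie near it.

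Replicates of a group differed widely. The highest replicate exceeded the lowest by a median of 2.80-fold over the rod genes in Opn4 crush, 3.15-fold in Opn4 sham, 1.86-fold in HB9 crush and 5.84-fold in HB9 sham. In HB9 sham this ratio ran from 4.20-fold for Nrl to 8.70-fold for Pde6a. The library numbered 1 was the highest for 8 of 10 rod genes in Opn4 crush, 9 of 10 in Opn4 sham, 7 of 10 in HB9 crush and 10 of 10 in HB9 sham. It was the highest of the HB9 sham libraries for all 23 genes outside the cone group. The labels do not say what a replicate number stands for.

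**Figure D3:**
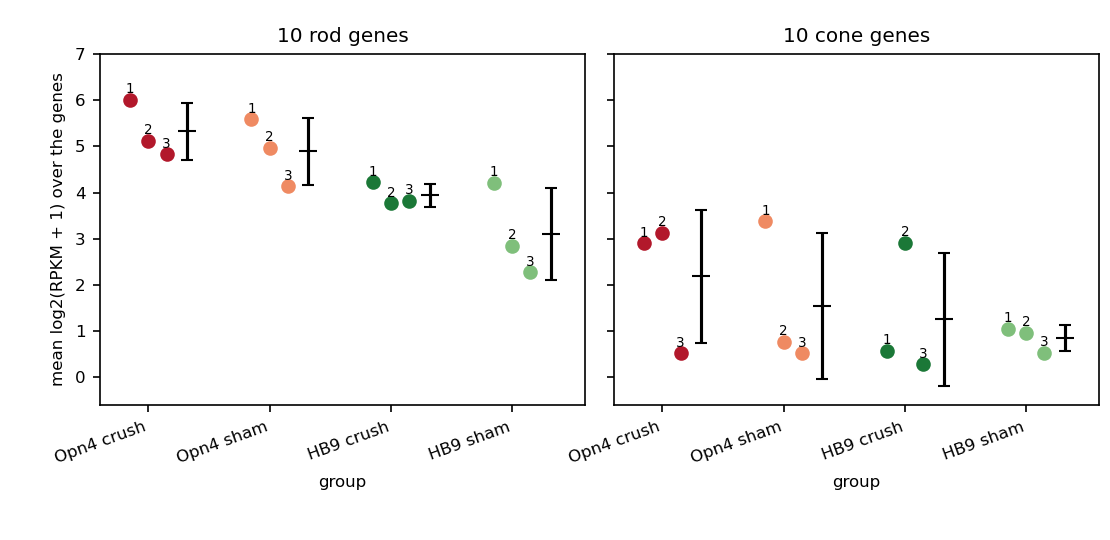
Mean log2(RPKM + 1) over the 10 rod genes, left, and the 10 cone genes, right, for each library (points, with the replicate number) and as group mean ± SD (bars, n = 3). Rod means are 5.32 ± 0.61 in Opn4 crush, 4.90 ± 0.73 in Opn4 sham, 3.94 ± 0.25 in HB9 crush and 3.11 ± 1.00 in HB9 sham, and the cone means spread more within 3 of the 4 groups.

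Cone opsin transcripts were high in few libraries, Opn1sw in 1 and Opn1mw in 3. Opn1sw, the short-wavelength opsin (chr6:29376671-29388468, mm10), was at 0, 291 and 1.04 RPKM in Opn4 crush, 3.26, 0.129 and 0 RPKM in Opn4 sham, 0, 0 and 0 RPKM in HB9 crush, and 0, 0 and 0.945 RPKM in HB9 sham libraries. Opn1mw, the medium-wavelength opsin (chrX:74127464-74150760, mm10), was at 44.3, 0 and 0 RPKM in Opn4 crush, 59.1, 0 and 0.804 RPKM in Opn4 sham, 0.193, 62.1 and 0 RPKM in HB9 crush, and 0.342, 1.12 and 0 RPKM in HB9 sham libraries. The library with the most Opn1sw had no read of Opn1mw, and Opn1mw exceeded 40 RPKM in 3 other libraries, where Opn1sw was at 0, 3.26 and 0 RPKM. A count of 0 allows up to 3 reads, or 0.0416 to 0.0677 RPKM for Opn1sw and 0.0726 to 0.127 RPKM for Opn1mw, counting error only.

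Arr3 and Gnat2 were at 10 RPKM or more in 4 libraries, the same 4 in which an opsin was highest or above 40 RPKM. Arr3, cone arrestin, was at 27.4, 21.9 and 0 RPKM in Opn4 crush, 45.8, 0.253 and 0.0197 RPKM in Opn4 sham, 0.0365, 10.0 and 0 RPKM in HB9 crush, and 0.908, 0.207 and 0 RPKM in HB9 sham libraries. Gnat2, cone transducin alpha, was at 35.6, 23.9 and 0 RPKM in Opn4 crush, 21.9, 0 and 0 RPKM in Opn4 sham, 1.78, 12.3 and 0 RPKM in HB9 crush, and 4.77, 2.11 and 1.70 RPKM in HB9 sham libraries. Each of the 9 cone genes above 0 had its maximum in 1 of these 4, Opn4 crush 1, Opn4 crush 2, Opn4 sham 1 and HB9 crush 2. Arr3, Gnat2 and Pde6h were higher in all 4 than in any other library. Gnb3, Gngt2, Cngb3, Pde6c, Opn1sw and Opn1mw were not. Pde6h, the inhibitory subunit of cone PDE6, was at 1.57, 2.66 and 0.00613 RPKM in Opn4 crush, 5.08, 0 and 0.00603 RPKM in Opn4 sham, 0, 3.142 and 0.00490 RPKM in HB9 crush, and 0.173, 0 and 0 RPKM in HB9 sham libraries. Pde6c, the cone catalytic subunit, was at 6.83, 9.86 and 11.9 RPKM in Opn4 crush 1, Opn4 sham 1 and HB9 crush 2 and at 0.0373 RPKM in Opn4 crush 2, so it was high beside Opn1mw and not beside Opn1sw. Gngt2, a cone transducin gamma subunit, reached 22.7 RPKM and Cngb3, a cone channel subunit, 9.66 RPKM. Gnb3, the cone transducin beta subunit that ON bipolar cells also express, had a median of 14.4 RPKM.

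**Figure D4:**
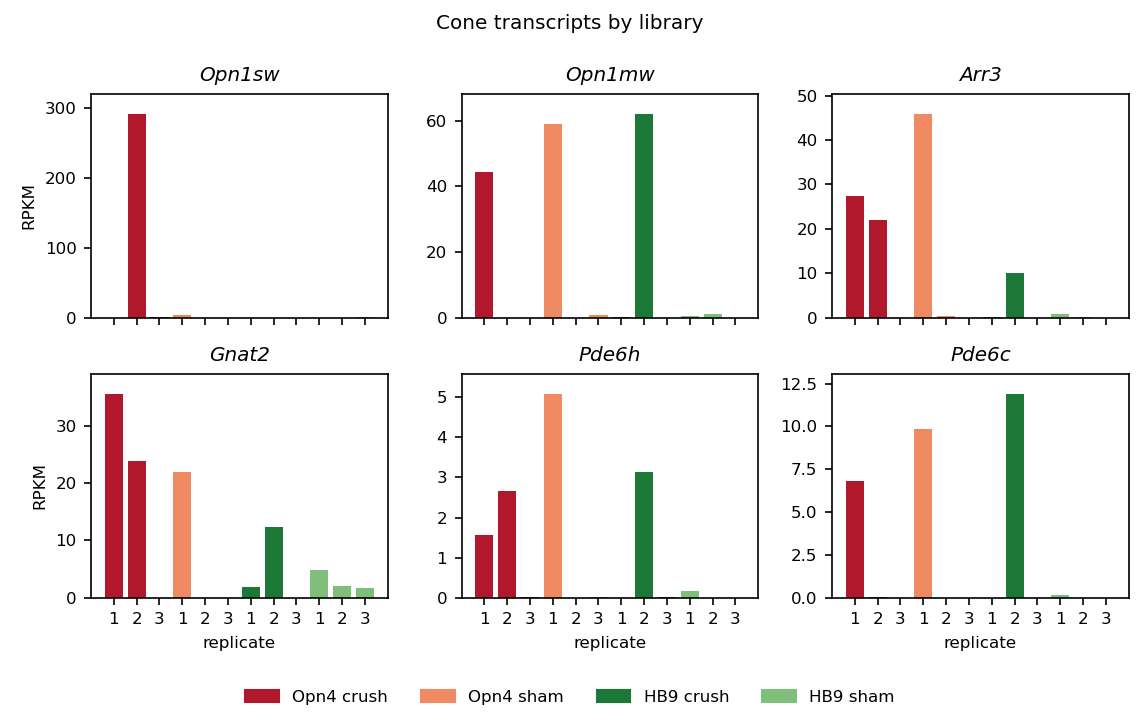
RPKM of 6 cone genes in each of the 12 libraries, with bars in the order Opn4 crush, Opn4 sham, HB9 crush and HB9 sham and the replicate number below, each panel on its own axis from 0. Opn1sw stands at 291 RPKM in Opn4 crush 2 alone, and Opn1mw at 44.3, 59.1 and 62.1 RPKM in Opn4 crush 1, Opn4 sham 1 and HB9 crush 2.

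Between the cell classes, 9 of the 10 rod genes and 5 of the 13 genes on neither the rod nor the cone list passed the threshold as higher in Opn4 libraries. None of the 9 tested cone genes passed, though the log2 differences of all 9 were above 0, with a median of 0.75. The comparison over both surgeries averaged the Opn4 minus HB9 difference after crush and after sham in limma on log2(RPKM + 1), over the 18269 genes with 1 RPKM or more in at least 3 libraries. A gene passed at a Benjamini-Hochberg adjusted p under 0.05. Of the 32 photoreceptor genes tested (Cnga3, at 0 throughout, was not), 14 were higher in Opn4 and 0 were lower, where 9.79% of all tested genes were higher and 12% lower. At an unadjusted p under 0.05 the counts were 20 higher and 0 lower, where 15.6% of all tested genes were higher and 18.9% lower, and limma voom on reads recovered from the RPKM values gave 10 higher and 0 lower. The log2 difference had a median of 1.42 over the 32 genes and of -0.07 over all tested genes. It was above 0 for 32 of 32, where 46% of all tested genes were above 0, though for 31 with a pseudocount of 0.1, for 31 with voom for 29 without Opn4 crush 1 and Opn4 sham 1, and for 29 to 32 leaving out each library in turn.

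By role, all 8 rod transduction genes passed. Cngb1 had a difference of 2.26 ± 0.37 (log2, SE, adjusted p = 0.000822, limma), Cnga1 of 1.91 ± 0.48 (adjusted p = 0.0123), Sag of 1.61 ± 0.41 (adjusted p = 0.0136), Gnat1 of 1.43 ± 0.41 (adjusted p = 0.0240) and Pde6g of 1.29 ± 0.40 (adjusted p = 0.0338). Pde6a, Pde6b and Gngt1 differed by 1.55 ± 0.43, 1.56 ± 0.50 and 1.42 ± 0.43 with adjusted p of 0.0205, 0.0425 and 0.0336. In linear terms on this scale the 8 differences ran from 2.45-fold for Pde6g to 4.79-fold for Cngb1. Of the 3 transcription factors 1 passed, Nr2e3, at 1.80 ± 0.35 (adjusted p = 0.00280). Crx at 1.30 ± 0.49 (adjusted p = 0.0769) and Nrl at 1.01 ± 0.41 (adjusted p = 0.0979) did not pass.

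Of the 5 regulators only Grk1 passed, at 2.01 ± 0.45 (log2, SE, adjusted p = 0.00708, limma), and Rcvrn had 1.64 ± 0.59 with an adjusted p of 0.0655. In the outer segment and cilium group 4 of 7 passed. They were Aipl1 at 1.64 ± 0.43 (adjusted p = 0.0159), Rp1 at 1.53 ± 0.45 (adjusted p = 0.0287), Prph2 at 1.52 ± 0.43 (adjusted p = 0.0229) and Rpgrip1 at 1.42 ± 0.39 (adjusted p = 0.0205). Rom1 differed by 0.68 ± 0.28, with an adjusted p of 0.106. None of the 9 tested cone genes passed, and none had an unadjusted p under 0.05. Arr3 had 1.76 ± 1.08 (adjusted p = 0.278), Opn1sw 1.75 ± 1.09 (adjusted p = 0.282), Opn1mw 0.75 ± 1.32 (adjusted p = 0.729), Gnat2 0.59 ± 1.02 (adjusted p = 0.726) and Pde6h 0.59 ± 0.54 (adjusted p = 0.478). The standard errors of the 9 cone genes, 0.54 to 1.32, were larger than those of the 10 rod genes, 0.35 to 0.50, and Opn1mw and Gnat2 changed sign when the apart libraries were left out.

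**Figure D5:**
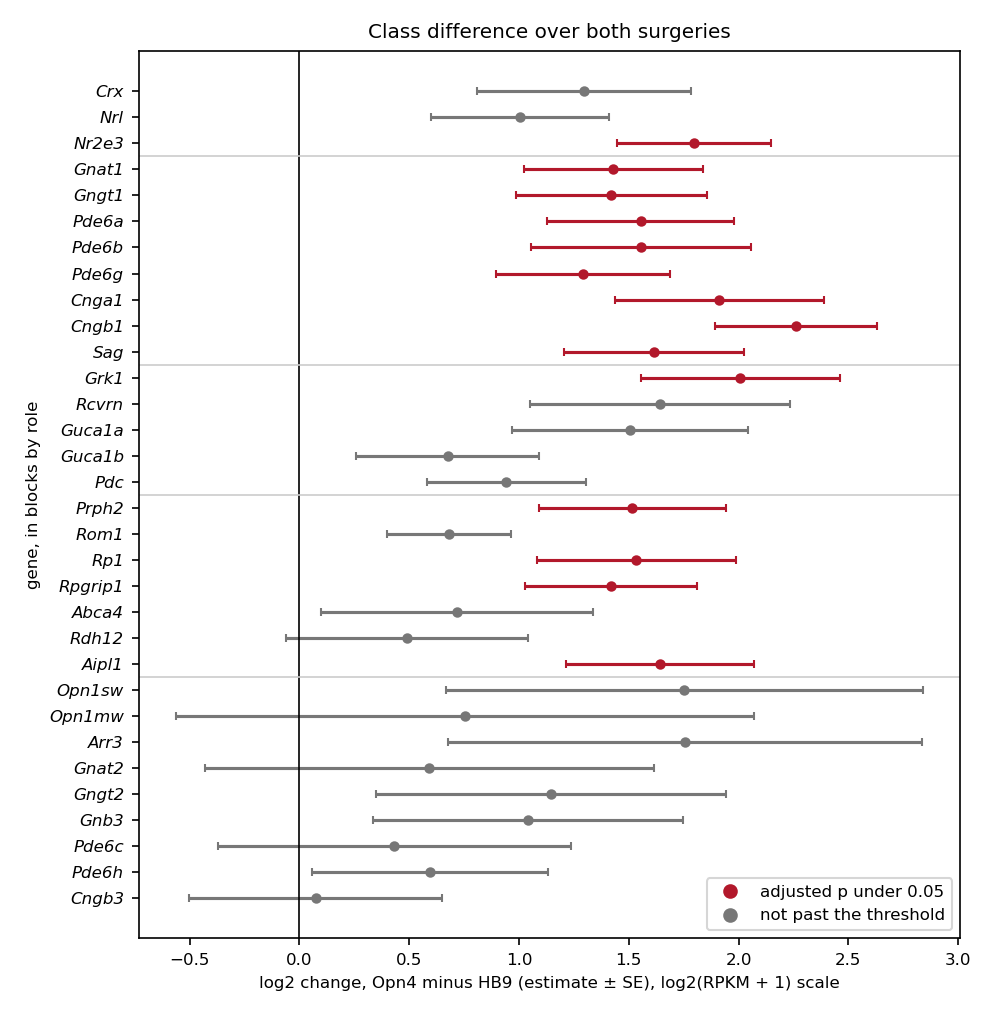
Log2 difference between classes, Opn4 minus HB9, over both surgeries for the 32 tested photoreceptor genes (points) with the limma standard error (bars), in blocks by role. Red points, 14 in number, have an adjusted p under 0.05, and all points lie to the right of 0.

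The count of 14 depended on single libraries. It was 8 without Opn4 sham 1, 8 without HB9 crush 3, 8 without HB9 sham 2 and 7 without HB9 sham 3. Without both Opn4 crush 1 and Opn4 sham 1 it was 4, and the median difference over the 32 genes was 0.97. Nr2e3, Cngb1, Grk1 and Rpgrip1 passed in that fit and when each of the 12 libraries was left out in turn. Cnga1, Sag and Aipl1 passed in all 12 of those fits but not without the pair of apart libraries, where their adjusted p was 0.0519, 0.0574 and 0.0561. Gnat1 had 1.00 and an adjusted p of 0.0928 in that fit, and its call was also lost without each of 5 single libraries. The other 6 lost their call without at least 1 library, from 1 library for Pde6a (HB9 sham 3) to 9 libraries for Pde6b.

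Several features of the libraries moved with class, and their part in the differences was not tested. Scaling totals were 15104446 to 22905890 reads in Opn4 libraries and 19874394 to 28195798 reads in HB9 libraries. Of 13 tested bipolar cell markers 1 was higher and 1 lower, beside the 9.79% and 12% of all tested genes, and 11 were above 0 with a median of 0.55. After crush 12 of the 13 were above 0 with a median of 1.24, the same sign as most photoreceptor genes. After sham 8 of the 13 were above 0 with a median of 0.11, where 30 of the 32 photoreceptor genes were, with a median of 1.23. The bipolar list summed to 166 to 446 RPKM in Opn4 libraries and 89.1 to 272 RPKM in HB9 libraries. Of 15 ganglion cell markers 2 were higher and 8 lower, with a median of -0.57. Amacrine cell markers gave 3 higher and 1 lower of 12, with 7 above 0, 5 below 0 and a median of 0.006. They summed to 513 to 815 RPKM in Opn4 libraries and 4090 to 6610 RPKM in HB9 libraries. Few genes made up the largest sum, since 5 of the 12 were at 1 RPKM or more in that library, HB9 sham 3. The mean log2(RPKM + 1) of the amacrine list overlapped between the classes. The 7 tested markers of Müller glia and astrocytes gave 2 higher and 0 lower, and their list of 13 summed to 571 to 1197 RPKM in Opn4 libraries and 467 to 2436 RPKM in HB9 libraries. Of those 13, 5 were at 1 RPKM or more in all 12 libraries, 11 were in Opn4 crush 1, and Gfap and Kcnj10 were below 1 RPKM in all 12.

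Taken by surgery, the class difference reached the threshold for few genes. After sham 2 of 32 were higher in Opn4 and 0 lower, Cnga1 at 2.90 ± 0.67 (log2, SE, adjusted p = 0.0138, limma) and Cngb1 at 2.70 ± 0.52 (adjusted p = 0.00450), where 5.82% of all tested genes were higher and 5.93% lower. The count was 4 without Opn4 crush 1, 6 without Opn4 sham 3 and 10 without HB9 sham 1, and 1 without Opn4 sham 1, HB9 sham 2 or HB9 sham 3. After crush 4 of 32 were higher and 0 lower, where 5.12% of all tested genes were higher and 7.6% lower. They were Nr2e3 at 2.39 ± 0.49 (adjusted p = 0.00737), Aipl1 at 2.22 ± 0.61 (adjusted p = 0.0305), Grk1 at 2.09 ± 0.64 (adjusted p = 0.0493) and Cngb1 at 1.83 ± 0.52 (adjusted p = 0.0365). That count was 1 without Opn4 crush 1 or HB9 crush 1, and 2 without Opn4 crush 2, HB9 crush 2 or HB9 crush 3, and Nr2e3 passed in all 12 of these fits. The 3 Opn4 libraries lay above the 3 HB9 libraries for 14 of 32 genes after crush, where 12.8% of all tested genes did so, and for 4 of 32 after sham, where 15.5% did. The 2 surgeries use different libraries, and whether the class difference itself changed with crush is given by the interaction term below.

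After nerve crush none of the 32 tested genes passed the threshold. Their median log2 change was 0.50 in Opn4 cells, 0.57 in HB9 cells and 0.52 averaged over the classes. Over all tested genes these medians were -0.02, 0.11 and 0.04. Single libraries moved the medians of the 32. That in Opn4 cells was -0.03 without Opn4 sham 3, and that in HB9 cells was -0.02 without HB9 crush 2. In Opn4 cells 0 of 32 passed in either direction, where 1.11% of all tested genes did, and voom gave 0. At an unadjusted p under 0.05 there were 3 higher and 0 lower, where 7.37% of all tested genes were higher. In HB9 cells 0 of 32 passed, where 6.42% of all tested genes did, and voom gave 0. At an unadjusted p under 0.05 there was 1 higher and 0 lower, where 11.1% of all tested genes were higher. Averaged over the classes 0 of 32 passed, where 6.98% of all tested genes did, and voom gave 0. At an unadjusted p under 0.05 there were 2 higher and 0 lower, where 11.5% of all tested genes were higher. The number of all genes that passed in HB9 cells, 1172, was 645 to 1393 leaving out each library, with the 6 lowest counts each without an HB9 library. In Opn4 cells, where 203 passed, it was 139 to 224. The smallest adjusted p over both classes belonged to Nrl, whose crush minus sham change was 1.37 ± 0.41 (log2, SE, adjusted p = 0.0633, limma). Nrl passed without Opn4 crush 3 (1.61, adjusted p = 0.0328), without Opn4 sham 1 (1.60, adjusted p = 0.0337) and without Opn4 crush 1 and Opn4 sham 1 together (1.34, adjusted p = 0.0440, limma). Within the classes its change was 1.34 ± 0.58 in Opn4 cells (adjusted p = 0.310) and 1.40 ± 0.58 in HB9 cells (adjusted p = 0.197).

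None of the other defining genes passed the threshold after crush in either class. In Opn4 cells the 8 defining rod and shared genes ran from -0.83 for Cnga1 to 1.34 for Nrl, with standard errors of 0.56 to 0.84. In HB9 cells they ran from -0.29 for Rcvrn to 1.40 for Nrl with the same errors. The 5 defining cone genes ran from -0.42 for Opn1mw to 2.32 for Opn1sw in Opn4 cells and from -0.32 for Opn1sw to 1.58 for Opn1mw in HB9 cells, with standard errors of 0.76 to 1.86. Crush libraries lay wholly above sham libraries for Nr2e3, Rpgrip1 and Aipl1 in Opn4 cells, 3 of 32 where 7.38% of all tested genes did so. In HB9 cells they did so for Nrl, Pde6a and Rdh12, 3 of 32 where 19% of all tested genes did so. The crush effect in Opn4 cells minus that in HB9 cells passed for 0 of 32 genes, where 0.816% of all tested genes passed, with 0 at an unadjusted p under 0.05 and 0 by voom. The smallest adjusted p of this interaction was 0.413, for Cnga1 at -1.97 ± 0.95. A p that misses the threshold does not show that crush left these transcripts as they were.

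Rod and cone paralogs were also compared as a ratio within each library. The log2 ratio of Gnat1 to Gnat2, each with 1 RPKM added, averaged 6.70 ± 2.11 in Opn4 libraries and 5.86 ± 1.46 in HB9 libraries (SD, n = 6 each). For Sag to Arr3 it averaged 3.67 ± 2.20 in Opn4 and 3.81 ± 1.39 in HB9 libraries, and for Cngb1 to Cngb3 2.73 ± 1.10 in Opn4 and 0.54 ± 1.56 in HB9 libraries. With 1 RPKM added, a ratio still depends on the scaling of the library where the cone gene is near 0. An exact two-sided permutation test with class labels permuted within surgery gave p = 0.03 for Cngb1 and Cngb3 and p = 0.02 for Cnga1 and Cnga3, which became 0.105 for each after adjustment over the 7 pairs. The smallest p that this permutation test could give was 0.005. Cnga3 was at 0 throughout, so its ratio is the level of Cnga1. Of the 7 pairs 0 passed, and 1 did without HB9 crush 1, Cnga1 and Cnga3 at an adjusted p of 0.035 in the permutation test.

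Other photoreceptor genes outside the 33 gave a mixed picture. Of a list of 41, 38 were tested, and over both surgeries 10 were higher in Opn4 and 4 were lower. Among all tested genes 9.79% were higher and 12% lower. Those higher included Cdhr1, a cadherin of the outer segment base, at 2.62 ± 0.36 (log2, SE, adjusted p = 0.000221, limma), and Rbp3, the retinoid-binding protein of the space around photoreceptors, at 1.71 ± 0.42 (adjusted p = 0.0117). Those lower included Rxrg, Thrb and Elovl4, which HB9 libraries held at up to 102, 10.9 and 162 RPKM. Neurons other than photoreceptors also express some genes of this list. Cdhr1 was the single gene of the list that rose after crush in HB9 cells, by 1.91 ± 0.51 (adjusted p = 0.0414), 1 of 38 where 3.84% of all tested genes rose. Over both classes it rose by 1.32 ± 0.36 (adjusted p = 0.0437), again 1 of 38, where 4.13% of all tested genes rose. Its values there were 14.5, 28.8 and 15.1 RPKM in HB9 crush libraries and 9.57, 1.64 and 3.999 RPKM in HB9 sham libraries, which did not overlap.

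Genes whose pattern over the 12 libraries was most like that of the rod genes were ranked by the root mean square difference between centred log2(RPKM + 1) values, among 18237 genes outside the 33. Tulp1, a photoreceptor tubby-like protein, ranked 2nd with a difference of 0.37, and Reep6, a membrane-trafficking protein of rods, ranked 6th with 0.44. Both were on the list of other photoreceptor genes. The ranks from 3 to 10 also held Lrrtm3, Tmem132a, Palld, Fabp5l2, Arhgef40, Soga2 and Gm6166, with differences of 0.39 to 0.48, and Fabp5l2 and Gm6166 are annotated as pseudogenes. For scale, the rod mean itself varied about its own average by 1.03. Of the 38 ranked genes of the list, 6 were among the first 100, including Lrit1, Slc17a7 and Rbp3.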

How the data were processed

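Hand-picked cell pools were converted to pre-amplified cDNA and sequenced, per the labels. The authors deposited 1 RPKM value per gene and library. TopHat2 2.0.11 and Bowtie, build mm10 and edgeR 3.14.0 are listed, with no role, in the submitters' processing notes. Counting, strand use and annotation are not given in the sources used here. Gene names and positions come from that table.

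Values were tested as log2(RPKM + 1), which understates changes of low genes, in limma 3.58.1 (R 4.3.3; lmFit, contrasts.fit, eBayes with trend), with 12 libraries, 4 group means and no block. Genes needed 1 RPKM in at least 3 libraries. Tests were two-sided with Benjamini-Hochberg adjustment over all 18269 genes. Errors are SE for changes and SD for levels. The 33 genes, all lists and tests were chosen with earlier results of these data known. Changes are given for 13 defining genes (Nrl, Gnat1, Pde6g, Sag, Cnga1, Crx, Rcvrn, Prph2, Arr3, Opn1sw, Opn1mw, Gnat2 and Pde6h) and for each gene past the threshold.

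Values of short genes times gene length gave whole numbers of reads (100% within 0.01 read), and so each library's scaling total. Recovered reads summed to 227% to 244% of those totals, for a reason the files do not give, so they served only for floors of 3 reads and for voom. Reads from amplified cDNA do not each stand for 1 molecule, so floors cover counting error only. Alternatives changed the pseudocount, filter, scaling, library weights and libraries used. The fits and the ratio test were tested on simulated data. The gene ranked first in likeness to the rod genes is not reported here.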

Additional observations from a re-analysis of the deposited data

How the results depend on the processing

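Scaling by median of ratios, quantile normalization and a filter at 5 RPKM left every count of genes past the threshold within 1.5 times its value, and voom did so except after sham (1). The 14 genes higher in Opn4 over both surgeries became 8 with no filter, 4 without Opn4 crush 1 and Opn4 sham 1, and 7 to 17 when each library was left out. The 4 after crush became 1 with a pseudocount of 0.1, 1 with no filter, 1 without both apart libraries, 2 with library weights, 2 in a fit of the 6 libraries compared, and 1 to 5 with each library left out. The 2 after sham became 1 to 10 with each library left out. The 0 for crush over both classes became 1 (Nrl) with library weights and without both apart libraries, and 0 to 1 with each library left out. The 0 for crush in HB9 cells became 1 with library weights (Nrl, 1.51, limma adjusted p = 0.0213). Over all genes, crush in HB9 cells gave 3025 with library weights and 1939 in a fit of its 6 libraries, beside 1172, and crush in Opn4 cells gave 87 and 13, beside 203. The 0 paralog pairs became 0 to 1 with each library left out. The cause was not tested.

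Reversed values were few and all outside the threshold. The class difference of Gnat2 was -0.21 with a pseudocount of 0.1, -1.30 with voom, -0.64 without both apart libraries and -0.16 to 1.41 leaving out 1 library; that of Opn1mw was -1.08 without both and -0.16 to 1.73 leaving out 1. Crush in HB9 gave Crx -0.033 with library weights and -0.21 to 0.78 leaving out 1. Crush in Opn4 gave Gnat1 -0.12 to 0.75, Pde6g -0.30 to 0.69 and Sag -0.044 to 1.00 leaving out 1. The paralog ratio difference was -0.69 for Gngt1 and Gngt2 and -0.048 for Pde6g and Pde6h with a pseudocount of 0.1, and 0.75 for Sag and Arr3 without both apart libraries. Leaving out 1 library it was -0.18 to 0.95 for Gngt1 and Gngt2 and -0.84 to 0.53 for Sag and Arr3.

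With the replicate block the counts were 20 over both surgeries, 10 after sham, 12 after crush and 1 (Nrl) for crush over both classes. The labels do not say that the numbers pair libraries, so the main fit had no block. Over all tested genes, deviations of libraries sharing a number had correlations of -0.02 to 0.08. For different numbers they were -0.08 to 0.07. Such correlations cannot decide pairing for the photoreceptor genes, where number 1 was the highest for most rod genes in each group.

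Groups of 3 pools of 30 cells limit all tests, and changes of cone genes, at 0 in 3 to 7 libraries for 8 of 10, rest on few libraries.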
